A study of Mus musculus with 5 samples.

Results

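The genes described here encode integrins and other adhesion proteins of the T cell surface: Itga4, Itgb1, Itgb7, Itgal, Itgb2, Itgae, Cd44, Cd9 and Cd47. All probe sets annotated to these 9 genes were taken. Of 12422 probe sets left once controls were set aside, 17 were members, and 9 of the 17, for 7 genes, passed the filter on low signal that 7453 of the 12422 passed. The cells were CD8 T lymphocytes of OT-1 TCR transgenic C57BL/6 mice aged 6 to 8 weeks, which carry 1 transgenic receptor for a peptide of ovalbumin. CD44lo cells were enriched from lymph nodes by negative selection, so the starting population was chosen for low CD44 protein. They were stimulated in culture on latex microspheres coated with the peptide bound to H-2Kb and with B7-1, which engages CD28 to costimulate T cells, and human IL-2 was present in all cultures. The groups were cells stimulated with murine IL-21 for 72 h (1 array), with IL-21 for 48 h (2 arrays) and without IL-21 for 48 h (2 arrays). A group without IL-21 at 72 h was not analysed here, so time and IL-21 could not be separated at 72 h. The labels call the arrays biological replicates without naming separate mice or cultures, so p-values measure only the spread between these samples. The number of arrays limited the precision.

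Integrins are pairs of an alpha and a beta chain. The alpha 4 chain pairs with beta 1 to form VLA-4, which binds VCAM-1 and fibronectin, and with beta 7 to form the receptor for MAdCAM-1 on gut vessels. Beta 7 also pairs with alpha E, known as CD103, which binds E-cadherin on epithelial cells and is induced by TGF-beta. The alpha L and beta 2 chains form LFA-1, which binds ICAM-1 and ICAM-2 and holds a T cell to its target or to a vessel wall. CD44 is a receptor for hyaluronan that stays high on activated and memory T cells, CD9 is a tetraspanin that organises integrins in the membrane, and CD47 binds SIRP-alpha on phagocytes and thrombospondin. Activated CD8 T cells are known to change their integrins as they leave lymph nodes for tissues.

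All values below are probe set signals after quantile normalisation, which gives every array the same distribution, so that a change is relative to the bulk of probe sets. Before it, the trimmed mean of the deposited signals was 65.9 on the 72 h array, 105 and 106 on the 48 h arrays with IL-21, and 75.4 and 65.3 on those without. The list of CD8 T cell markers held genes of T cells in general besides Cd8a and Cd8b1, so its sum is not specific to CD8 cells. Of its 12 genes, 10 were on the array, and all 10 passed the filter. Their summed normalised signal was 9807 on the 72 h array, 6835 and 7533 on the 48 h arrays with IL-21 and 6800 and 6987 on those without, and 3 of them, Cd3d (log2 difference 1.40), Cd3g (1.78) and Thy1 (0.58), were called higher at 72 h in limma. Cd3e (0.54), Zap70 (0.35) and Cd8b1 (0.12) were higher without passing. Cd8a (-0.51), Cd5 (-0.52), Cd247 (-0.33) and Cd2 (-0.18) were lower without passing. B cell markers (7 of 8 on the array, 5 past the filter) had a summed normalised signal of 984 on the 72 h array, 497 and 682 on the 48 h arrays with IL-21 and 401 and 671 on those without. Most of that sum was Ighm, with 868 on the 72 h array, while Pax5 had 38.0, Cd79b 33.6, Cd79a 17.7 and Ms4a1 17.7 there. The log2 differences at 72 h were 0.88 for Ighm, 0.75 for Cd79b, 0.09 for Pax5, -0.02 for Cd79a and -0.22 for Ms4a1. None of them passed. The sums for myeloid and dendritic markers (11 of 11 on the array) were 335 on the 72 h array, 232 and 333 with IL-21 at 48 h and 326 and 398 without it. Within that list H2-Ab1, a class II chain, had 140 at 72 h, against 60.2 and 58.1 at 48 h with IL-21, and 72.1 and 67.8 without, and was called higher (log2 difference 1.24, adjusted p = 0.0256 in limma). Itgax (1.30, adjusted p = 0.164) did not pass, Itgam differed by 2.01 below the filter, and the macrophage marker Lyz2 was at most 2.99 on any array. The other members of this list past the filter were lower at 72 h without passing. They were H2-Eb1, also a class II chain (-0.78), Cd74 (-0.37), Csf1r (-0.80) and Cd14 (-0.61). No marker was listed at 0, and the part of such cells in the results below was not tested. In such bulk samples a change in the share of cells that express a gene and a change in RNA per cell cannot be told apart.

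The comparison of 72 h with 48 h asked how cells kept with IL-21 differed between the time points. The integrin beta chain genes Itgb7 and Itgb2 and the gene of the surface protein CD47 were called higher at 72 h, while both probe sets of Itgb1 lay lower without passing the test. Of the 9 member probe sets tested, 4 passed at an adjusted p under 0.05 in limma, for 3 genes, all 4 higher at 72 h, and 5 did not pass. Over all 7453 probe sets tested, 11.2% were called, 4.04% as higher and 7.12% as lower. The median log2 difference was 1.02 over the 9 member probe sets and -0.01 over all tested. The 72 h group was a single array, and the test assumed that it varied like the 48 h groups. When either 48 h array with IL-21 was left out, 0 of the 7453 probe sets and 0 of the 9 passed in limma, while 1697 and 1749 had an unadjusted p under 0.05. When either array without IL-21 was left out, 2 of the 4 calls remained, Itgb7 and the brighter Cd47 probe set.

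**Figure D1:**
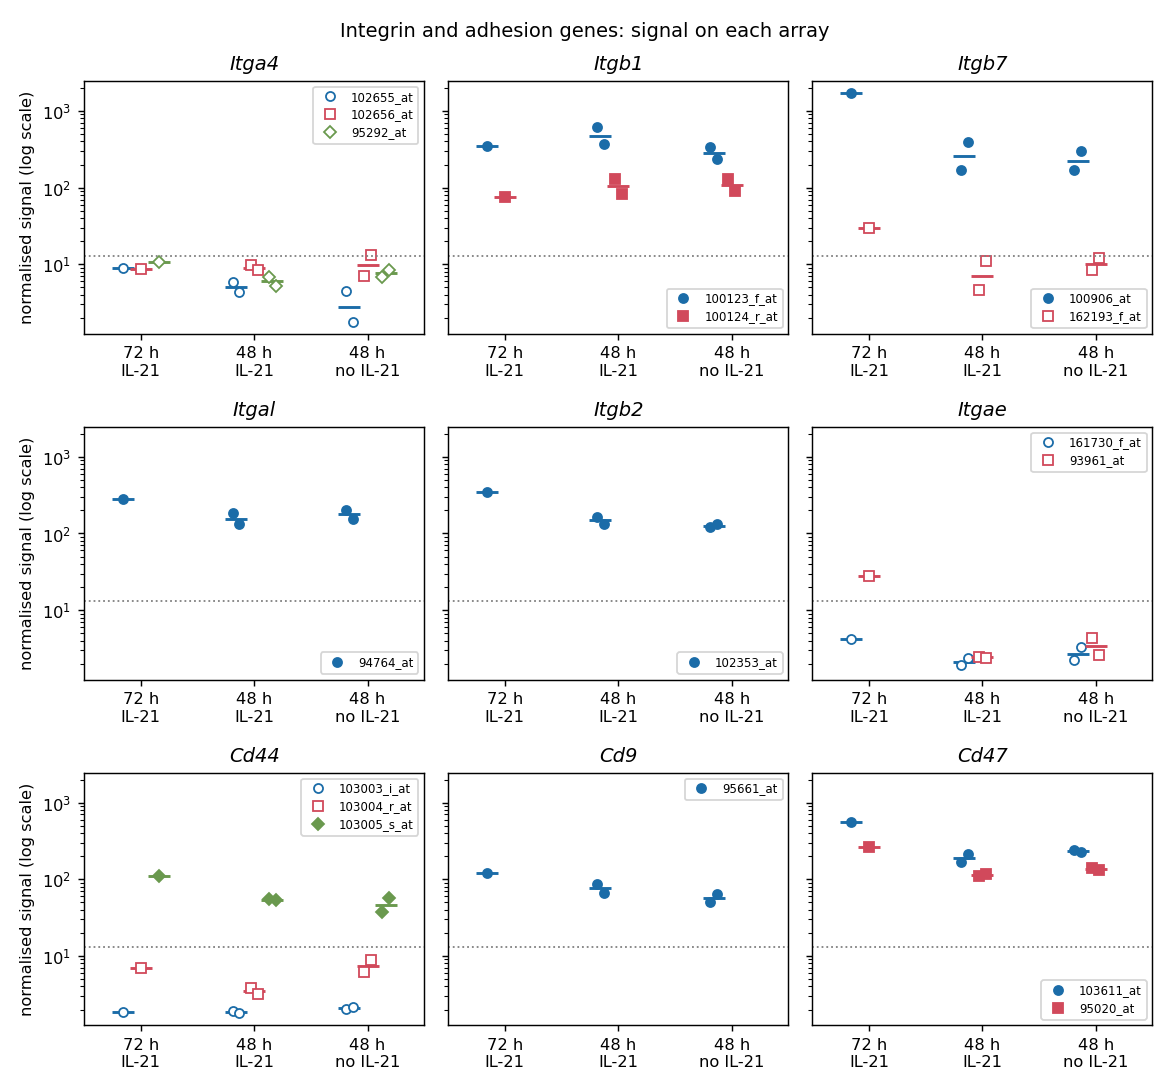
Normalised signal (log axis) of every member probe set on each array, by group, with a horizontal dash at the group mean on the log scale; filled symbols passed the filter, open ones did not, and the dotted line marks the filter's signal of 13.0. Itgb7 probe set 100906_at reaches 1741 on the 72 h array, and the Itgae probe set 93961_at is above the line on that array only.

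Itgb7, the beta chain of both the MAdCAM-1 receptor and CD103, had the largest difference among the tested members. Its probe set 100906_at had a normalised signal of 1741 on the 72 h array, against 171 and 392 on the 48 h arrays with IL-21, and 168 and 297 on those without. The 72 h value was above all 4 arrays at 48 h, while the arrays within each 48 h group lay farther apart than the means of these groups. Relative to 48 h with IL-21, Itgb7 rose 6.72-fold at 72 h (log2 difference 2.75, SE 0.54, adjusted p = 0.0300 in limma). Dropping single arrays gave log2 differences of 2.15 to 3.35. The second Itgb7 probe set, 162193_f_at, which lay below the filter, had 30.1 at 72 h, against 4.60 and 10.9 at 48 h with IL-21, and 8.41 and 12.1 without. It was highest at 72 h as well, with a log2 difference of 2.09. The suffix f marks probes that can match a family of sequences.

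Itgb1, the beta chain of VLA-4 and of most receptors for extracellular matrix, had negative differences at 72 h on both its probe sets. Probe set 100123_f_at had 350 at 72 h, against 368 and 614 at 48 h with IL-21, and 237 and 341 without. The 72 h array lay within the range of the 48 h arrays, and the log2 difference of -0.44 (SE 0.36, 95% interval -1.31 to 0.43) did not pass (adjusted p = 0.492 in limma). It ranged from -0.81 to -0.07 with single arrays dropped. Probe set 100124_r_at, made from the same transcript record, had 74.7 at 72 h, against 83.3 and 130 at 48 h with IL-21, and 89.8 and 128 without. Here the 72 h array was below all others, by a log2 difference of -0.48 (SE 0.36, adjusted p = 0.455 in limma) from 48 h with IL-21. Dropping single arrays gave -0.80 to -0.16.

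The partners of these beta chains gave weak signals. All 3 probe sets of Itga4 lay below the filter, between 8.69 and 10.8 on the 72 h array, between 4.31 and 9.75 with IL-21 at 48 h and between 1.75 and 13.4 without it. The arrays therefore gave no measure of the alpha 4 chain that the low-signal filter would keep. Itgae was also below the filter on its mean over the 5 arrays, but its probe set 93961_at had 28.1 at 72 h, against 2.42 and 2.41 at 48 h with IL-21, and 4.39 and 2.58 without. The single 72 h array stood far above 4 arrays that were close to the bottom of the scale. In the fit without a filter, where 4.76% of 12422 probe sets were called, 1.66% as higher and 3.1% as lower, it passed with a log2 difference of 3.54 (SE 0.51, adjusted p = 0.0239 in limma). The size of this difference depends on the offset added before log2: it was 1.34 with 16 signal units and 4.91 with none. The other Itgae probe set, 161730_f_at, had 4.25 at 72 h, against 1.90 and 2.39 with IL-21 at 48 h, and 2.23 and 3.28 without. Its log2 difference in the fit without a filter was 1.00, and no test is given for it either.

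Of the chains of LFA-1, Itgb2, the beta 2 chain that all leukocyte integrins of this family share, was called. It had 346 at 72 h, against 166 and 134 at 48 h with IL-21, and 122 and 131 without. All 4 arrays at 48 h lay well below the 72 h array. Itgb2 rose 2.32-fold relative to 48 h with IL-21 (log2 difference 1.22, SE 0.22, adjusted p = 0.0254 in limma). Itgal, the alpha L chain that is specific to LFA-1, had 278 at 72 h, against 183 and 131 at 48 h with IL-21, and 202 and 155 without. The 72 h array was again the highest, but the log2 difference of 0.85 (SE 0.28, 95% interval 0.16 to 1.54) did not pass (adjusted p = 0.117 in limma).

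Cd47 was measured by a pair of probe sets, and both were called. The brighter, 103611_at, had 556 at 72 h, against 170 and 216 at 48 h with IL-21, and 242 and 228 without. Cd47 rose 2.91-fold by this probe set (log2 difference 1.54, SE 0.21, adjusted p = 0.0149 in limma), the smallest p of the tested members. The dimmer, 95020_at, had 264 at 72 h, against 110 and 119 with IL-21 at 48 h, and 140 and 131 without. It rose 2.31-fold (log2 difference 1.21, SE 0.20, adjusted p = 0.0208 in limma). On both probe sets the order of the groups was the same, with 72 h highest and 48 h with IL-21 lowest, and no array of 1 group overlapped another.

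Cd44 and Cd9 were higher on the 72 h array without passing. Cd44 probe set 103005_s_at had 110 at 72 h, against 55.1 and 53.0 at 48 h with IL-21, and 37.4 and 56.7 without. The log2 difference was 1.02 (SE 0.32, 95% interval 0.24 to 1.80, adjusted p = 0.0996 in limma). The other Cd44 probe sets, 103003_i_at and 103004_r_at, were below the filter, with 1.84 and 6.90 at 72 h. Cd9 had 121 at 72 h, against 87.8 and 66.5 with IL-21 at 48 h, and 50.01 and 63.5 without. Its log2 difference was 0.66 (SE 0.29, 95% interval -0.05 to 1.38, adjusted p = 0.210 in limma).

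**Figure D2:**
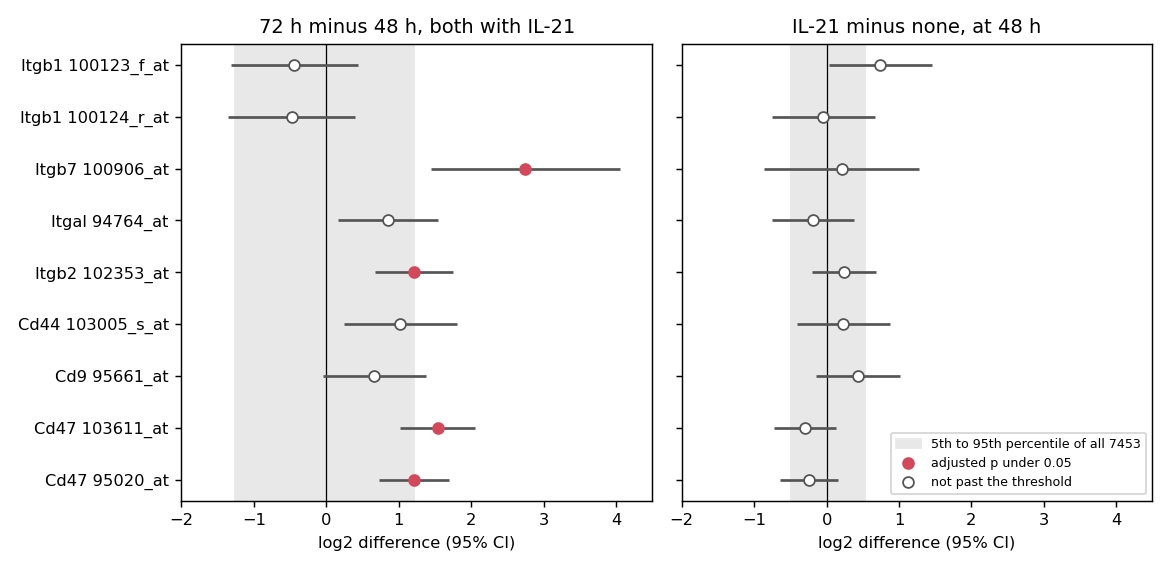
Log2 differences of the 9 member probe sets that passed the filter, with 95% intervals from limma, for 72 h against 48 h with IL-21 (left) and IL-21 against none at 48 h (right); the grey band spans the 5th to 95th percentile of all 7453 probe sets, and red points passed the threshold. The 4 called points at 72 h lie between 1.21 and 2.75, and none is called at 48 h.

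By rank on the 72 h array, members lay above all 4 arrays at 48 h in 7 of the 9 tested probe sets and in 12 of all 17, and below them in 1, the Itgb1 probe set 100124_r_at. Over the 7453 probe sets tested, 30.4% lay above and 33.8% below. These shares belong beside the 9 tested. None was computed for the 17, which include probe sets below the filter. The difference of 2.75 for Itgb7 was at the 99.6th percentile of all differences at 72 h, those of Cd47 at the 97.3rd and 95.04th, that of Itgb2 at the 95.1st, and those of Itgb1 at the 24.9th and 22.8th.

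The scaling between arrays changed how many members were called but, in the scalings tried, no direction among the 9. In the deposited values without scaling, the median of all probe sets lay 0.58 lower at 72 h on the log2 scale, and 3 members were called, Itgb7 (2.21) and the brighter Cd47 probe set (0.85) as higher and Itgb1 100123_f_at (-1.17) as lower. Relative to that median the differences were 2.79, 1.43 and -0.59. With arrays centred on their medians the same Itgb7 and Cd47 probe sets were called (2.62 and 1.26), while Itgb2 (0.91, adjusted p = 0.0770) and Cd47 95020_at (0.88, adjusted p = 0.101) were not. Scaling on the trimmed mean, or on 9 probe sets for bacterial and phage transcripts added as hybridisation controls, left the same 4 calls. Over all probe sets 36.2% of calls were higher after quantile normalisation (301 higher and 531 lower), against 4.75% in the deposited values (101 and 2027), 18.1% with median centring (122 and 552) and 49.0% with the controls (322 and 335).

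**Figure D3:**
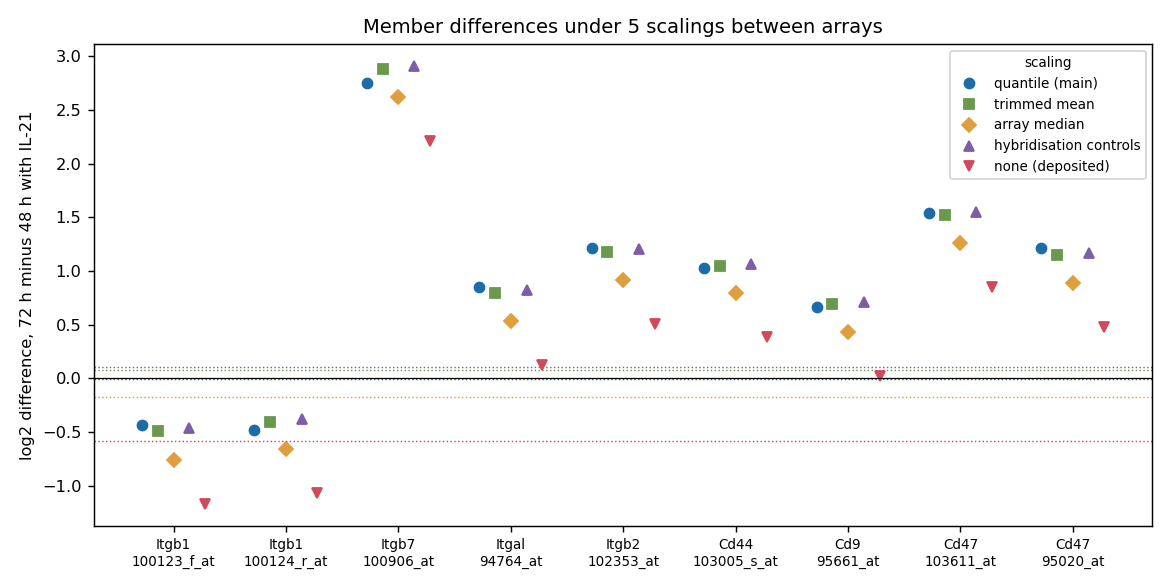
Log2 difference between 72 h and 48 h with IL-21 for the 9 tested member probe sets under 5 scalings between arrays; dotted lines give the median of all tested probe sets in the same colour. Itgb7 stays between 2.21 and 2.91, and both Itgb1 probe sets stay below 0.

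Promoter windows are shown for Itgb7 and Cd47, which were called higher at 72 h, and for Itgb1, whose differences were negative. They come from RefSeq (GRCm38.p6), which held a window for 6 of the 9 genes, and run from 250 bases before to 50 after an annotated start. For Itgb7 and Cd47 that start lies inside the annotated gene, whose outermost start is at 102233405 for Itgb7 and 49851328 for Cd47. Those outermost starts were not searched. Capitals mark matches on either strand to any of the 5 motifs searched, none of which overlapped another in these windows: GGGCGG, the GC box bound by SP and KLF factors, TGTGGT, the core of RUNX sites, TTCNNNGAA, the form bound by STAT factors, CCGGAAG, an ETS site, and CACGTG, the E-box.
Itgb7, chr15:102231886-102232185, minus strand: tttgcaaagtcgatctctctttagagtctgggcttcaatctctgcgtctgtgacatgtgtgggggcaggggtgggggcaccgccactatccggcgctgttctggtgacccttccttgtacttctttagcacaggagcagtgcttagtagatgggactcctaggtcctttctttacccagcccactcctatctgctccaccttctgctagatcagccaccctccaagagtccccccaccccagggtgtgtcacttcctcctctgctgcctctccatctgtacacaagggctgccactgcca
Cd47, chr16:49855404-49855703, plus strand: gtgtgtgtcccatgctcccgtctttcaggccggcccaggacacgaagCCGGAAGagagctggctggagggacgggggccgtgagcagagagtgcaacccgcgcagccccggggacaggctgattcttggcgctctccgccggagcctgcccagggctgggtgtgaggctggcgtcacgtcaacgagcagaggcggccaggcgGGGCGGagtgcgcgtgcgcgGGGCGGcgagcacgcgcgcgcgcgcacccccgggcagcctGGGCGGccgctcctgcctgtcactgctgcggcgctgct
Itgb1, chr8:128685404-128685703, plus strand: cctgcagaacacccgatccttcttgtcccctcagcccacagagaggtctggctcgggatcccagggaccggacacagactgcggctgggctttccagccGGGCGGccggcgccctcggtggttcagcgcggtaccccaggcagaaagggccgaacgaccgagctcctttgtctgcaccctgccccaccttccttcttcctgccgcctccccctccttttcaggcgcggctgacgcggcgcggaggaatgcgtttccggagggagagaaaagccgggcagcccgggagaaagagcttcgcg
The Itgb7 window held none of these letters and had a G and C content of 56.3%. The Cd47 window held 3 GC boxes and 1 ETS match (74.0%), and the Itgb1 window held 1 GC box (67.3%). Over 32851 windows of 300 bases, 35.7% held the GC box, 16.8% the RUNX core, 8.9% the ETS letters, 8.3% the STAT form and 7.2% the E-box. A match describes letters, not binding, and these windows were not measured in the arrays.

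The comparison at 48 h asked what IL-21 added to antigen and B7-1. No member passed the test, and 0% of the 7453 probe sets did, so the values describe 2 arrays against 2. In limma 327 of all probe sets and 1 of the 9 member probe sets, Itgb1 100123_f_at, had an unadjusted p under 0.05. By sign 5 of the 9 were higher with IL-21 and 4 lower. Their median log2 difference was 0.21, against -0.01 over all probe sets tested. The arrays of the groups did not overlap for 5 of the 9 tested and 9 of all 17 member probe sets, where 33.8% of all tested did not (15.9% with both IL-21 arrays above and 17.9% with both below). That share belongs beside the 9 tested, and none was computed for the 17.

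Itgb1 100123_f_at, with the values given above, was higher on both arrays with IL-21 than on both without it, a log2 difference of 0.74 (SE 0.29, 95% interval 0.03 to 1.45, adjusted p = 0.967 in limma). With single arrays dropped it ranged from 0.37 to 1.11, while Cd9 ranged from 0.24 to 0.64 and Itgb2 from 0.084 to 0.39. The other Itgb1 probe set did not share this, with -0.04 (SE 0.29) and overlapping arrays. Itgb2 (0.24, 95% interval -0.20 to 0.68) and Cd9 (0.44, -0.14 to 1.02) were higher on both arrays with IL-21, and the probe sets of Cd47 were lower on both (-0.30, -0.72 to 0.13, and -0.24, -0.64 to 0.15). Itgb7 differed by 0.21 between the groups, with a wide interval of -0.86 to 1.28. Cd44 103005_s_at differed by 0.23 (-0.41 to 0.87) and Itgal by -0.19 (-0.75 to 0.37), and for these 3 probe sets the arrays of the groups overlapped. The Cd44 probe set 103004_r_at, below the filter, had the opposite sign, with 3.82 and 3.18 with IL-21 and 6.20 and 8.72 without (log2 difference -1.08). Adjusted p was between 0.967 and 0.998 for the 9 in limma. In the deposited values, in which the median of all probe sets was 0.57 higher with IL-21, Itgb1 100123_f_at (1.31, adjusted p = 0.0434) and Cd9 (1.02, adjusted p = 0.0489) passed, among 696 that did.

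Replicate arrays at 48 h differed from each other for several members. Itgb7 100906_at was higher on the array numbered 2 than on that numbered 1, by 1.20 on the log2 scale with IL-21 and 0.82 without, both more than the difference with IL-21. Itgb1 100123_f_at was lower on the array numbered 2 by values of -0.74 with IL-21 and -0.52 without, and Itgb1 100124_r_at by -0.65 and -0.52. Itgal lay lower there too, by -0.47 and -0.38. The labels do not say what the replicate numbers share.

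The rest of the adhesion machinery was read from 7 lists of 107 genes, 89 of them on the array and 67 past the filter, with the brightest probe set by mean standing for each gene. At 72 h 5 of the 67 were called higher and 1 lower, 42 had a positive and 25 a negative sign, the median log2 difference was 0.28, and 25 had an unadjusted p under 0.05. Over all 7453 probe sets tested, 11.2% were called, 2032 had an unadjusted p under 0.05 and the median was -0.01. Of 6 other integrin chains tested, 1 was called, Itga7, a laminin receptor chain, which had 80.5 at 72 h and 23.3 at 48 h with IL-21 and rose by 1.79 on the log2 scale (SE 0.36, adjusted p = 0.0325 in limma). Its other probe sets differed by 0.23 and 1.45. Of 9 ligands of the members, 0 were called and 5 were lower. Icam1 and Icam2, the ligands of LFA-1, had the smallest p, with 17.2 at 72 h and 41.1 at 48 h for Icam1 (log2 difference -1.25, adjusted p = 0.0746 in limma) and 33.2 and 60.8 for Icam2 (-0.87, adjusted p = 0.0853). These 2 genes had an unadjusted p under 0.05.

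Of 22 genes that activate integrins or tie them to the cytoskeleton, 1 was called. Rasgrp2, an exchange factor that activates the small GTPase Rap1 and through it integrins, had 220 at 72 h, against 39.8 and 36.1 at 48 h with IL-21, and 36.2 and 28.6 without. It rose by 2.53 on the log2 scale (SE 0.28, adjusted p = 0.0102 in limma). The list had a median of 0.21, with talin (Tln1, 0.11, and 0.44 and 0.65 on its other probe sets) and kindlin-3 (Fermt3, 0.39), both of which bind beta chain tails, not called. Of 4 ERM linkers, which tie CD44 to actin, 0 passed, and Msn (0.59, adjusted p = 0.0918) and Rdx (-0.59, adjusted p = 0.131) had opposite signs, each with an unadjusted p under 0.05. Of 8 tetraspanins and partners of CD9's family, Cd37 rose by 1.64 (adjusted p = 0.0176), Tspan4 fell by 1.20 on the log2 scale (adjusted p = 0.0246), and 6 did not pass in limma. Among 13 other adhesion and homing molecules 2 were called higher, Selplg, which encodes the selectin ligand PSGL-1 (0.93, adjusted p = 0.0234), and Ccr7, the lymph node homing receptor (1.20, adjusted p = 0.0187). Of 5 tested genes of the TGF-beta pathway, which induces CD103, 0 passed, with 0 genes at an unadjusted p under 0.05. Smad7 (0.83, adjusted p = 0.219) and Smad4 (0.63, adjusted p = 0.232) had the smallest p in limma. The receptor genes Tgfbr1 and Tgfbr2, and Smad3 and Skil, lay below the filter and were not tested. Differences in these lists rest on the same 3 arrays as those of the members, and all calls were lost when either 48 h array with IL-21 was left out.

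**Figure D4:**
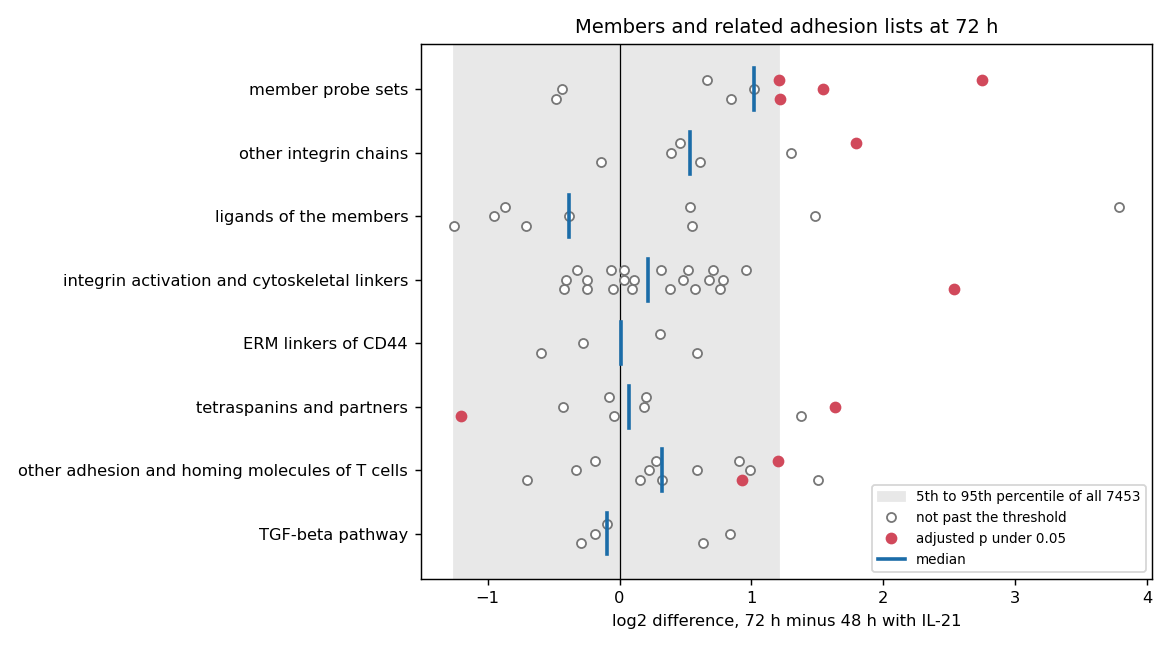
Log2 difference between 72 h and 48 h with IL-21 for the 9 tested member probe sets and, by list, for related adhesion genes; red points passed the threshold, the blue bar is the median, and the grey band spans the 5th to 95th percentile of all 7453 probe sets. The median of the member probe sets is 1.02 and those of the lists lie between -0.38 and 0.54.

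At 48 h, 0 of the 67 list genes passed in limma, with signs of 32 higher and 35 lower with IL-21 a median of -0.02 and 3 at an unadjusted p under 0.05. The genes with the smallest p in each list were Itga3 (-0.47) and Itga7 (-0.40) among integrin chains, Icam2 (0.21) and Col1a1 (-0.48) among ligands, Was (0.37) and Lcp1 (0.23) among linkers, and Ezr (0.39) and Msn (-0.15) among ERM genes. They were Cd82 (-0.30) and Cd37 (-0.43) among tetraspanins, Ccr7 (-0.41) and Ly9 (-0.31) among homing molecules and Smad4 (0.47) and Tgfb1 (-0.19) in the TGF-beta list. Their adjusted p lay between 0.967 and 0.985. Some of these genes had other probe sets of opposite sign. The other probe sets differed by 0.25 and -0.19 for Itga7, 0.19 for Col1a1 and 0.86 and -0.29 for Cd82. Those of Itga3 (-0.17) and Lcp1 (0.05) kept the sign.

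The pattern of Itgb7 over the 5 arrays was most like those of Crip1, Klrc1 and Mgst3, with root mean square differences of 0.20, 0.25 and 0.25 on the log2 scale between profiles centred on their means, among 7452 other probe sets. Crip1 rose by 2.66 at 72 h (adjusted p = 0.0176 in limma) and Mgst3 by 2.76 (adjusted p = 0.0413), while Klrc1, which encodes the inhibitory receptor NKG2A, differed by 2.55 without passing (adjusted p = 0.0893). Nearest to Itgb1 100123_f_at were Mrps18a (0.08), Wsb1 (0.09) and Ruvbl1 (0.10). All 3 shared with it a high value on the 48 h array with IL-21 numbered 1 and a low value on that without IL-21 numbered 2. These likenesses rest on 5 arrays, and the genes were picked by them. That Crip1, Klrc1 and Mgst3 differed at 72 h much as Itgb7 did therefore followed from the choice, and their p-values add no support.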

How the data were processed

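The deposited values are probe set intensity values, not logged, and MAS5 is named for them in the submitters' processing notes. Its version, its scaling target and any detection calls were not given in the sources used here. Depth of sequencing does not apply. Gene names came from GEO's platform annotation, updated through Entrez identifiers to the RefSeq gene table (10817 of 10833 singly named probe sets matched). Before taking log2, 1.53 (the 10th percentile over all arrays) was added to each value, which makes differences smaller for dim probe sets. Log2 values were quantile normalised, and probe sets with a mean over the 40th percentile (signal 13.0) were kept. Group means for 3 groups were fitted to all 5 arrays with limma 3.58.1 in R 4.3.3 (2 residual degrees of freedom; the empirical Bayes prior followed mean signal), two-sided, with Benjamini-Hochberg adjustment over 7453 probe sets at 0.05. The procedure was tested on simulated data in which the 72 h array had the same spread as the 48 h arrays. That assumption was therefore not tested. SE is the standard error from limma, and group levels are 2 raised to the mean log2 value.

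The members, lists, motifs and tests were chosen with earlier results of these data known. Every member probe set is named. Of each list, up to 4 called genes per comparison were named by smallest p, or 2 where none passed; Tln1 and Fermt3 were named for their role after their values were seen. Likeness was fixed for Itgb1 and Itgb7, to the 3 nearest genes. Marker lists of 7 cell types were read, and those not given in the results had sums on the 72 h array of 45.3 (CD4 and regulatory T cells), 18.5 (NK cells), 58.7 (platelets and erythroid cells) and 306 (stromal and endothelial cells). In that order, the sums at 48 h with IL-21 were 26.0 and 22.7, 7.71 and 10.1, 75.2 and 41.5, and 276 and 209. Without IL-21 they were 27.2 and 25.5, 14.5 and 14.2, 55.1 and 59.9, and 279 and 239. Except for platelets and erythroid cells, the 72 h sum was the highest. The alternatives were the offset, scaling, filter, variance trend, samples in the fit, replicate block, each 48 h array left out and, chosen after seeing the data, the order of log2 and normalisation.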

Additional observations from a re-analysis of the deposited data

How the results depend on the processing

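Of the 9 tested member probe sets, all kept their sign at 72 h under the 15 alternative settings and the 1 added after seeing the data, while calls moved. Several settings could not turn a sign, because they leave the 72 h difference itself unchanged. These were the filter, the variance trend, fitting only the groups compared and leaving out an array without IL-21. No setting varied the single 72 h array. The number called at 72 h, 4 in the results, was 2 with arrays centred on their medians, 2 with only the groups compared, 0 without a variance trend (6 with an unadjusted p under 0.05) and 8 with the replicate block, and 0 to 2 with single arrays dropped. Over all probe sets, 832 called became 2128 in the deposited values, 425 with only the groups compared, 0 without the trend (1843 with an unadjusted p under 0.05 in limma) and 1860 with the replicate block (25% of those tested), and between 0 and 453 with an array left out. At 48 h the count of 0 became 696 in the deposited values (Itgb1 100123_f_at and Cd9 among them) and 11 with the replicate block, which held no member. In the replicate block fit 4 more members passed at 72 h, with Itgb1 at -0.76 and -0.77, Itgal at 0.63 and Cd44 at 1.16, but no label ties the numbers to a shared source. The correlation over probe sets of the replicate differences with and without IL-21 was 0.36, and with 2 pairs it decides nothing. In the 72 h comparison fewer residual degrees of freedom remain when arrays are left out, when only the groups compared are fitted and with the replicate block. Why the calls moved was not tested. None of the 5 arrays carries a detection call, so dim probe sets have no tested presence.

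Signs at 48 h that turned belonged to differences that did not pass. In the deposited values these were Itgb1 100124_r_at (0.50), Itgal (0.36), Cd47 (0.28 and 0.33), Itga3 (0.11), Itga7 (0.13), Col1a1 (0.068), Msn (0.46), Cd82 (0.29), Cd37 (0.16), Ly9 (0.24), Ccr7 (0.16) and Tgfb1 (0.40), and at 72 h Msn (-0.10) and Smad4 (-0.037). With each array left out in turn, the 48 h difference ranged from -0.37 to 0.28 for Itgb1 100124_r_at, -0.39 to 0.81 for Itgb7, -0.43 to 0.046 for Itgal, -0.069 to 0.53 for Cd44, -0.95 to 0.0076 for Itga3, -1.13 to 0.18 for Col1a1 and -0.31 to 0.0091 for Msn.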

Other observations

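The homing list also held genes below the filter on mean signal, and the largest difference among them was chosen after its value was seen. Klf2, a transcription factor known to keep S1pr1 expressed in resting T cells, had a normalised signal of 115 on the 72 h array, against 4.16 and 4.42 on the 48 h arrays with IL-21, and 4.75 and 5.64 on those without. All 4 arrays at 48 h lay below the filter signal of 13.0, close to the offset of 1.53, so no fold or test is given for it. S1pr1 itself, by the brighter of its probe sets, had 13.8 at 72 h, against 3.11 and 8.27 with IL-21 at 48 h, and 5.55 and 8.24 without. It did not pass in the fit without a filter (log2 difference 1.45, adjusted p = 0.363 in limma). The other S1pr1 probe set differed by only 0.09 at 72 h. Itgam, the alpha chain that pairs with beta 2 on myeloid cells and on some activated CD8 T cells, had 14.8 at 72 h, against 4.29 and 3.12 with IL-21 at 48 h, and 4.47 and 9.17 without (adjusted p = 0.146 in that fit).

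Lgals3, which encodes the secreted lectin galectin-3, had 1122 at 72 h, against 26.0 and 253 with IL-21 at 48 h, and 25.9 and 243 without. Both arrays numbered 2 were high and both numbered 1 were low at 48 h, and the difference at 72 h of 3.79 on the log2 scale (SE 1.64) did not pass (adjusted p = 0.203 in limma). It was singled out after its values were seen.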
